A study of Homo sapiens with 6 samples.

Results

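Epithelial-mesenchymal transition (EMT) genes were followed in A549 cells that overexpressed IL17D. The genes were the transcription factors SNAI1, SNAI2, ZEB1, ZEB2, TWIST1 and TWIST2, the mesenchymal proteins VIM and FN1, and the epithelial genes EPCAM and ESRP1. They were found by symbol in the count table, where all 10 had a row among 58735 genes. A549 is an established human lung adenocarcinoma line, grown here in RPMI medium with fetal bovine serum. The 3 control libraries came from cells that carried the empty lentiviral vector, and the 3 IL17D libraries came from cells with the IL17D reading frame in that vector, which drives its insert from the PGK promoter and also makes GFP. Both groups were therefore transduced cells of the same line. The sources used here do not say whether the libraries came from separate cultures, so p-values measure the spread between these libraries only, which may be technical.

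During EMT, epithelial cells lose adhesion and polarity and gain motility. Factors of the SNAI, ZEB and TWIST families bind E-box sequences and repress epithelial genes such as CDH1, which encodes E-cadherin, and microRNAs of the miR-200 family in turn repress ZEB1 and ZEB2. A549 cells are known to shift toward a mesenchymal shape when given TGF-beta.

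Each library held 14319398 to 16521021 counted reads. IL17D, the gene carried by the vector, had 24, 18 and 34 counts in the control libraries and 31274, 32155 and 26772 in the IL17D libraries, so it followed the labels in every library. Among 15754 tested genes, 1.58% passed the test at an adjusted p of 0.05, with 0.673% higher and 0.908% lower in IL17D cells. These calls came from the quasi-likelihood test in edgeR, adjusted over all tested genes by the Benjamini-Hochberg method. The epithelial keratins KRT7, KRT8 and KRT18 had at least 22453 counts in every library, whereas the epithelial markers KRT19 and EPCAM had few. Of 5 endothelial markers, KDR and TEK had 0 counts in all 6 libraries, as did PTPRC and CD3E of 6 leukocyte markers. The other markers of both lists had counts. In TPM (counts per kilobase scaled to the same sum), the endothelial list summed to 0.174 to 0.235 in control and 0.0379 to 0.314 in IL17D libraries. The leukocyte list, with 1 gene abundant enough to test, summed to 1.25 to 1.9 and 1.22 to 2.36 TPM. In bulk RNA, fewer cells of a type and less RNA per cell cannot be told apart.

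One member passed the test, FN1, which fell by 14.3% in IL17D cells. No member rose. Of the 10 members, 8 had enough counts to be tested, and ZEB2 and ESRP1 did not. The 1 call among 8 tested members stood beside 1.58% of all tested genes, and DESeq2 and limma voom also called 1 member, at an adjusted p of 0.05 and at an unadjusted p of 0.05 alike. In edgeR, FN1 was also the single member at an unadjusted p under 0.05, which 11.6% of all tested genes had. For DESeq2, 4 members had no adjusted p. The interval of the difference was narrow for VIM and ZEB1 and wide for TWIST1, EPCAM and SNAI2, which had at most 33 counts in any library. Only FN1, of the 8 tested members, had groups that did not overlap, beside 15.8% of all tested genes.

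Levels between genes were compared as TPM, counts per kilobase of gene length scaled to the same sum in every library. VIM was the most abundant member, at 242 ± 4.55 TPM in control and 235 ± 5.12 TPM in IL17D cells (SD, n = 3), and ranked 475 among all genes. FN1 followed at 47.4 ± 2.27 and 40.3 ± 0.221 TPM, TWIST2 at 27.1 ± 1.9 and 25.9 ± 1.77, SNAI1 at 14.1 ± 3.2 and 16.6 ± 2.02, and ZEB1 at 12.2 ± 1.03 and 12.8 ± 0.159. The remaining members were low. TWIST1 had 1.66 ± 0.477 and 2.56 ± 0.957 TPM, EPCAM 1.39 ± 0.489 and 1.27 ± 0.154, and SNAI2 0.656 ± 0.311 and 0.741 ± 0.0271. ESRP1 had 0.102 ± 0.0638 and 0.082 ± 0.108 TPM, and ZEB2 had 0.0637 ± 0.0328 and 0.0682 ± 0.0296 TPM. In control cells, the means of SNAI1 and ZEB1, of TWIST1 and EPCAM, and of ESRP1 and ZEB2 differed by less than the larger SD of each pair. When the longest transcript set the length, SNAI1 and ZEB1 changed places in this order, as did ESRP1 and ZEB2. The level of ZEB2 over all 6 libraries was 0.066 TPM with the deposited length and 0.133 TPM with the longest transcript. The mesenchymal proteins thus stood at the top of the order and both epithelial members near its bottom, in control and IL17D cells alike.

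**Figure D1:**
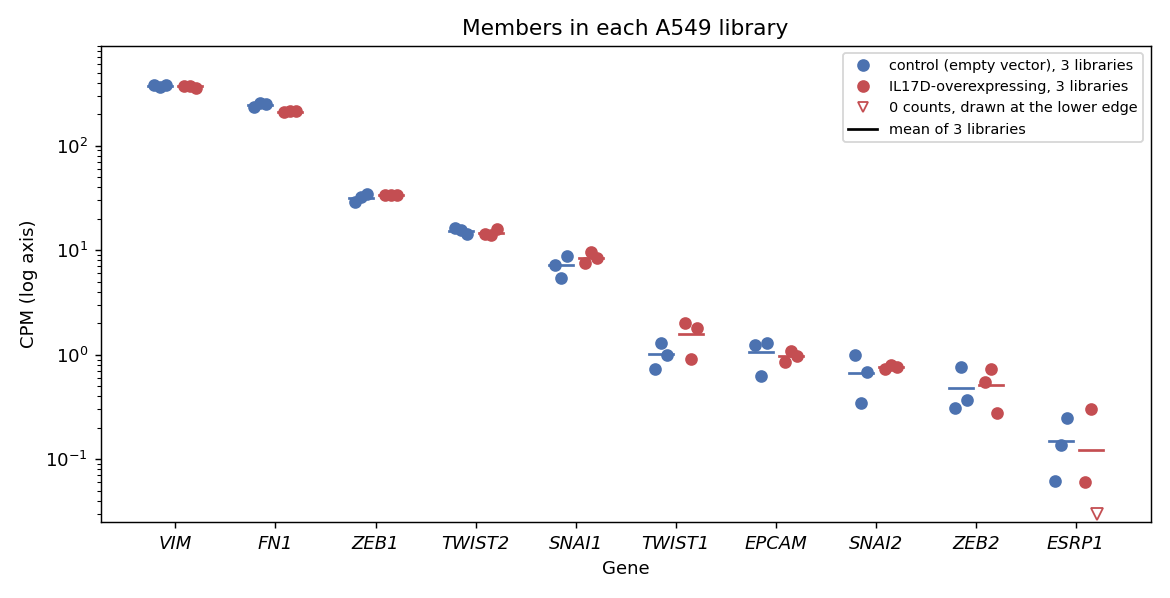
CPM of each of the 10 members on a log axis, with a point for each of the 3 control (blue) and 3 IL17D (red) libraries and a line at each group mean. VIM lies between 360 and 382 CPM in all 6 libraries, the FN1 points of the groups are apart (234 to 255 against 210 to 213 CPM), and the low members scatter widely, with 1 ESRP1 library at 0 counts drawn as a triangle at the lower edge.

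FN1 (ENSG00000115414, chr2:215360440-215436172, minus strand, GRCh38) encodes fibronectin, an extracellular matrix protein that cells bind through integrins. It had 234, 255 and 253 CPM (counts scaled to library size, after TMM) in control libraries 1, 2 and 3, and 210, 213 and 213 CPM in IL17D libraries 1, 2 and 3. Every IL17D library lay below every control library. The mean was 247 ± 11.4 CPM in control and 212 ± 1.93 CPM in IL17D cells (SD, n = 3), and the log2 fold change was -0.22 (SE 0.0382, 95% interval -0.3 to -0.15, adjusted p = 0.0004 in edgeR's quasi-likelihood test). Across the alternatives the log2 fold change of FN1 stayed between -0.26 and -0.2, with adjusted p-values of 3.67e-06 to 0.00764. Exons of FN1 overlapped no other gene, and 0.893% of its 31-base stretches occurred in other genes. Fibroblasts also make fibronectin. Of 8 fibroblast markers, COL1A1 was the single one with enough counts to test, and the summed level of all 8 was 7.94 to 8.97 TPM in control and 6.7 to 8.43 TPM in IL17D libraries. DCN had 1 count in all 6 libraries together, and COL1A2 had 5. The part of such cells in the FN1 difference was not tested.

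VIM (ENSG00000026025, chr10:17228259-17237593, plus strand) encodes vimentin, the intermediate filament protein of mesenchymal cells. It had 382, 366 and 379 CPM in control libraries 1, 2 and 3, and 373, 372 and 360 CPM in the IL17D libraries. The groups overlapped. The means were 375 ± 8.54 and 369 ± 7.41 CPM (SD, n = 3), with a log2 fold change of -0.027 (SE 0.0333, 95% interval -0.09 to 0.04, edgeR adjusted p = 0.842). Of the 31-base stretches of VIM, 23.2% were shared with other genes, and its exons overlapped antisense genes, VIM-AS1 by 641 bases and AL133415.1 by 619. The strand setting of the counting was not stated, and the antisense gene VIM-AS1 had 1.8 ± 0.293 and 1.95 ± 0.122 CPM (SD, n = 3). The log2 ratio of FN1 to VIM, which needs no scaling between libraries, was -0.71, -0.52 and -0.58 in control and -0.83, -0.81 and -0.76 in IL17D libraries. All 3 IL17D ratios were lower, by 0.2 in the mean, and the exact two-sided permutation p was 0.1, the smallest that 20 regroupings allow. This ratio was chosen after the values were seen.

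FN1 is known to carry cAMP response and CCAAT elements in its proximal promoter. The 250 bases before the RefSeq starts of FN1 and VIM are shown because these genes were the most abundant members and differed in outcome, with matches to the searched motifs in capitals. The searched letters were the cAMP response element TGACGTCA, the AP-1 element TGANTCA (both read alike on either strand), the E-box as CAGGTG or CACCTG, and the CCAAT box as CCAAT or ATTGG. Among 35116 RefSeq promoters, in the same 250 bases before the start, TGACGTCA occurred in 1.65%, TGANTCA in 6.57%, this E-box in 17.5% and the CCAAT box in 32%.
FN1, GRCh38.p14 chr2:215436069-215436318, minus strand: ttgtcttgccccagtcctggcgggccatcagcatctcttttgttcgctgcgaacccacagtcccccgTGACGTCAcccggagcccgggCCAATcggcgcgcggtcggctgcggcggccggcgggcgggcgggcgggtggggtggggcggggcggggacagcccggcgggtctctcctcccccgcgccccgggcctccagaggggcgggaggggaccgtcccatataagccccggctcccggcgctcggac
VIM, GRCh38.p14 chr10:17227991-17228240, plus strand: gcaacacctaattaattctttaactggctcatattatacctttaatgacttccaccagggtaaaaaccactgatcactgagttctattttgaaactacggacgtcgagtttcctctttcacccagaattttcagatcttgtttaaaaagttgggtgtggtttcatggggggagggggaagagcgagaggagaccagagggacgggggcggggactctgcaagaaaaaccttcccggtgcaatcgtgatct
The FN1 stretch held TGACGTCA 183 bases and a CCAAT box 162 bases before the start. The VIM stretch held none of these letters. Among the other members, TWIST2, which did not pass the test either, had a CCAAT box 105 bases before its start. E-box letters occurred before some starts of ZEB1, which also did not pass. The matches therefore do not sort the members by outcome. A match is a description of the sequence, and binding at these sites was not measured.

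Among the transcription factors, none passed the test. SNAI1 (ENSG00000124216, chr20:49982999-49988886, plus strand) encodes Snail, a zinc-finger repressor of CDH1. It had 7.26, 5.46 and 8.77 CPM in control and 7.48, 9.61 and 8.41 CPM in IL17D libraries. The groups overlapped, with control library 2 lowest and IL17D library 2 highest. The means were 7.16 ± 1.65 and 8.5 ± 1.07 CPM (SD, n = 3), and the log2 fold change was 0.24 (95% interval -0.07 to 0.56, edgeR adjusted p = 0.612). It was 0.0854 without control library 2, 0.14 without IL17D library 2 and 0.41 without control library 3, and passed the test in none of these fits. SNAI2 (ENSG00000019549, chr8:48917604-48921740, minus strand), which encodes the related repressor Slug, had 16, 5 and 11 counts in control and 12, 13 and 11 in IL17D libraries. Its log2 fold change was 0.17 (95% interval -0.77 to 1.1, edgeR adjusted p = 0.942) and was -0.13 without control library 2 and 0.55 without control library 1. A difference of this size was not detectable at this depth.

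ZEB1 (ENSG00000148516, chr10:31318495-31529814, plus strand) encodes a zinc-finger homeodomain repressor. It had 29, 32.4 and 34.3 CPM in control and 34, 33.6 and 33.5 CPM in IL17D libraries. The IL17D libraries lay within the range of the control libraries. The means were 31.9 ± 2.68 and 33.7 ± 0.284 CPM (SD, n = 3), with a log2 fold change of 0.081 (95% interval -0.07 to 0.23, edgeR adjusted p = 0.754), with 0.0171 without control library 1 and 0.14 without control library 3. ZEB1-AS1, an antisense gene whose exons share 366 bases with ZEB1, had 5.66 ± 0.985 and 4.39 ± 0.343 CPM (SD, n = 3) and a log2 fold change of -0.37 (95% interval -0.73 to -0.01, edgeR adjusted p = 0.413). ZEB2 (ENSG00000169554, chr2:144364364-144524583, minus strand), its paralog, was near the limit of detection, with 5, 11 and 6 counts in control and 9, 12 and 4 in IL17D libraries. These values overlapped, and ZEB2 was below the count filter. ZEB1 was thus the more abundant ZEB factor in both groups.

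The mature miR-200 sequences are shown because this family is the known repressor of ZEB1 and ZEB2, with the seed (bases 2 to 8) in capitals.
hsa-miR-141-3p: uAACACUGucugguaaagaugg
hsa-miR-200a-3p: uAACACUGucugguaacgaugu
hsa-miR-200b-3p: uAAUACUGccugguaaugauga
hsa-miR-200c-3p: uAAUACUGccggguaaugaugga
hsa-miR-429: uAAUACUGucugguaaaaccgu
The sequences are from RefSeq (GRCh38.p14). The seeds fall into a pair of groups, shared by miR-141 and miR-200a and by miR-200b, miR-200c and miR-429. The rows of all 5 miRNA genes had 0 counts in all 6 libraries, and the host transcript MIR200CHG had 1 count in all. Gene counts from this kind of library do not measure mature miRNAs, so their levels are not known from these data.

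TWIST1 (ENSG00000122691, chr7:19020991-19117672, minus strand) and TWIST2 (ENSG00000233608, chr2:238848032-238910543, plus strand) encode basic helix-loop-helix factors. TWIST2 was the more abundant, with 16.2, 15.6 and 14.2 CPM in control and 14.4, 14 and 15.9 CPM in IL17D libraries. The groups overlapped, and the log2 fold change was -0.056 (95% interval -0.27 to 0.16, edgeR adjusted p = 0.905). TWIST1 had 12, 19 and 16 counts in control and 33, 15 and 26 in IL17D libraries. IL17D libraries 1 and 3 were above all control libraries and IL17D library 2 was not. The means were 1.02 ± 0.288 and 1.58 ± 0.586 CPM (SD, n = 3), and the log2 fold change was 0.64 (95% interval -0.12 to 1.4, edgeR adjusted p = 0.552). It lay between 0.42 (without IL17D library 1) and 0.92 (without IL17D library 2) when single libraries were left out, and TWIST1 did not pass the test in any of these fits.

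EPCAM (ENSG00000119888, chr2:47345158-47387601, plus strand) encodes an epithelial adhesion molecule. It had 20, 9 and 21 counts in control and 14, 18 and 14 in IL17D libraries. The IL17D libraries lay within the control range. The means were 1.05 ± 0.375 and 0.976 ± 0.122 CPM (SD, n = 3), and the log2 fold change was -0.12 (95% interval -0.92 to 0.68, edgeR adjusted p = 0.951), with 0.00276 without control library 1 and 0.0586 without control library 3. ESRP1 (ENSG00000104413, chr8:94641074-94707466, plus strand) encodes an epithelial splicing regulator. It had 1, 2 and 4 counts in control and 1, 5 and 0 in IL17D libraries, where 0 counts allow up to 0.21 CPM. Its paralog ESRP2 had 7, 2 and 5 counts in control and 10, 3 and 5 in IL17D libraries, also below the count filter. No fold change is given for ESRP1, since both groups were near the limit of 3 counts in a library.

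Ratios of an epithelial to a mesenchymal member were also taken. EPCAM had only 9 to 21 counts in a library, so these ratios cannot settle the epithelial or mesenchymal state of the cells. The log2 ratio of EPCAM to VIM was -8.55 ± 0.562 in control and -8.57 ± 0.189 in IL17D libraries (SD, n = 3). The difference was -0.02, with an exact two-sided permutation p of 1. The log2 ratio of EPCAM to FN1 was -7.95 ± 0.631 and -7.77 ± 0.171 (SD, n = 3), a difference of 0.18 with an exact two-sided permutation p of 1. With 3 libraries in each group this test cannot go below 0.1. The spread of both ratios in control cells came with the 9 EPCAM counts of control library 2, and the sign of both differences depended on single libraries.

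**Figure D2:**
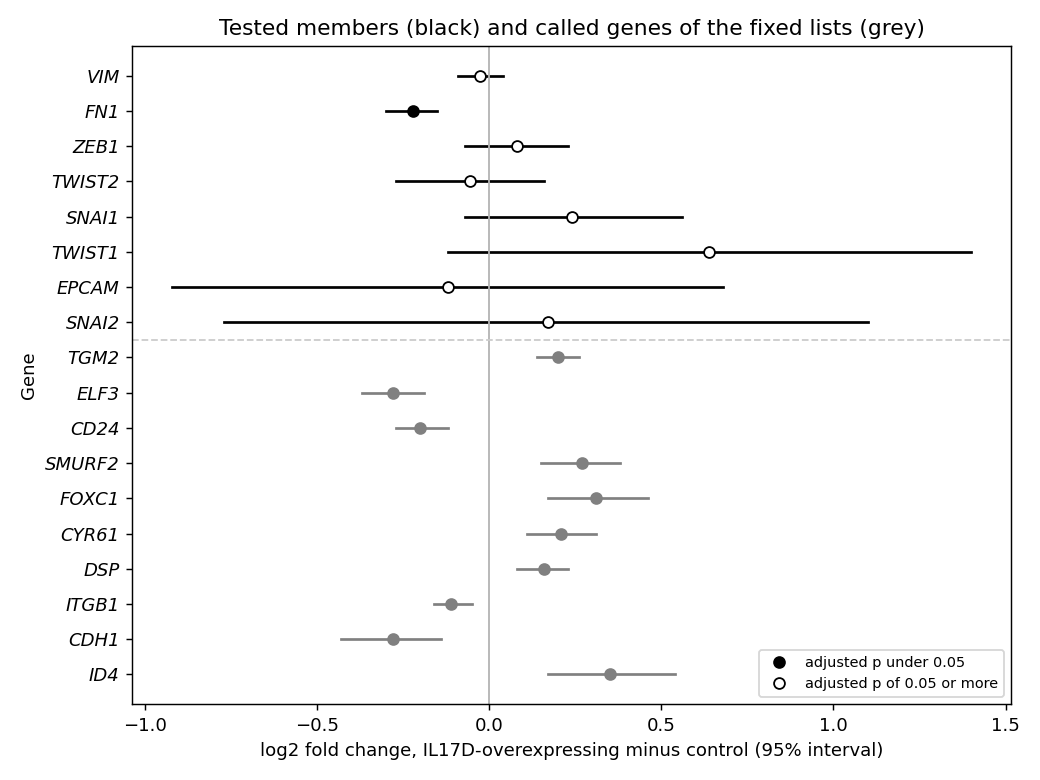
Log2 fold change with its 95% interval for the 8 tested members (black) and for the 10 genes of the related lists that passed the test (grey), filled where the adjusted p was under 0.05. FN1, at -0.22, is the single filled member, and the intervals of the other 7 cross 0, from -0.09 to 0.04 for VIM, the narrowest, to -0.77 to 1.1 for SNAI2, the widest.

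Around the members, 199 further genes of the same pathways were followed in 12 lists, of which 158 were tested. Of these, 6 rose and 4 fell, beside 0.673% higher and 0.908% lower among all tested genes. In counts of the lists, rose and fell refer to genes that passed the test. The median log2 fold change was 0.003, against a median of 0 over all tested genes.

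Among 17 tested other EMT transcription factors and E proteins, 2 rose and none fell, beside 0.673% higher and 0.908% lower among all tested genes. The median log2 fold change was 0.002. In edgeR, 5 of the 17 had an unadjusted p under 0.05, beside 11.6% of all tested genes. FOXC1, a forkhead factor, had 31.9, 39.3 and 34.9 CPM in control and 44, 44.8 and 42.9 CPM in IL17D libraries (log2 fold change 0.31, edgeR adjusted p = 0.0115). ID4, which blocks DNA binding by helix-loop-helix factors, had 17.2, 18.5 and 18.2 CPM in control and 21.4, 24.6 and 22.8 CPM in IL17D libraries (log2 fold change 0.35, edgeR adjusted p = 0.0373). In both genes every IL17D library was above every control library, where 15.8% of all tested genes had groups apart in either direction. Both genes were named for passing the test on these libraries, so groups apart are not separate evidence. The FOXC1 call was lost without control library 1 (edgeR adjusted p = 0.132), IL17D library 1 (0.054) or IL17D library 2 (0.0509). The ID4 call was lost in DESeq2 (adjusted p = 0.059) and without any library other than IL17D library 1 (0.0626 to 0.207).

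None of the 12 corepressors and chromatin partners of the factors passed the test, also at an unadjusted p of 0.05, and the same held for the 12 genes of SNAI protein turnover. AJUBA, a LIM protein that joins SNAI factors to their corepressors, had 128 ± 2.32 and 120 ± 1.43 CPM (SD, n = 3), and the corepressor CTBP1 had 110 ± 7.39 and 117 ± 5.63 CPM. FBXO45 and FBXO11, which are F-box subunits of ubiquitin ligases, had log2 fold changes of 0.13 and -0.056. Among 14 TGF-beta inputs, SMURF2, a ubiquitin ligase that limits TGF-beta signaling, rose from 56.3 ± 0.345 to 67.7 ± 3.25 CPM (SD, n = 3, log2 fold change 0.27, edgeR adjusted p = 0.005), with an adjusted p of 0.0829 without IL17D library 3. The list held no other call, beside 0.673% higher and 0.908% lower among all tested genes, and its median log2 fold change was 0.048. In edgeR, 2 of the 14 had an unadjusted p under 0.05, beside 11.6% of all tested genes.

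Among 29 tested genes of the epithelial programme, 3 fell and 1 rose, beside 0.908% lower and 0.673% higher among all tested genes. The median log2 fold change was -0.027. In edgeR, 11 of the 29 had an unadjusted p under 0.05, which 11.6% of all tested genes had. ELF3, an epithelial ETS factor, had 139, 146 and 133 CPM in control and 116, 116 and 112 CPM in IL17D libraries (log2 fold change -0.28, edgeR adjusted p = 9.1e-05). CD24, a surface glycoprotein, fell from 224 ± 4.91 to 195 ± 4.61 CPM (SD, n = 3, log2 fold change -0.2, edgeR adjusted p = 0.0016). CDH1, the classic target of SNAI and ZEB factors, had 40.9, 43.1 and 46.2 CPM in control and 32.4, 35.6 and 39 CPM in IL17D libraries (log2 fold change -0.28, 95% interval -0.43 to -0.14, edgeR adjusted p = 0.0306). All 3 genes were lower in every IL17D library than in any control library, and 15.8% of all tested genes had groups apart in either direction. These genes too were named for passing the test on the same libraries, so this is not separate evidence. The CDH1 call was lost in DESeq2 (adjusted p = 0.0553) and, in edgeR, without control library 2 (adjusted p = 0.0765), control library 3 (0.135), IL17D library 1 (0.269) or IL17D library 2 (0.0806). In the other direction DSP, which encodes the desmosomal protein desmoplakin, rose from 210 ± 4.5 to 235 ± 4.2 CPM (SD, n = 3, log2 fold change 0.16, edgeR adjusted p = 0.0129). That call was lost without control library 1 (0.078), IL17D library 2 (0.0877) or IL17D library 3 (0.0575). CRB3, a polarity protein, and CLDN4, a tight junction claudin, had the lowest estimates, -1.13 and -0.65 (edgeR adjusted p = 0.139 and 0.113). CRB3 had only 30, 18 and 31 counts in control and 12, 14 and 10 in IL17D libraries. GRHL1 and MARVELD2 had the highest estimates, 0.31 and 0.24 (edgeR adjusted p = 0.71 and 0.647). None of these genes passed the test, and all were picked out after their values were seen. Of the 29 estimates, 11 were positive and 18 negative. The 6 epithelial markers, CDH1 among them, summed to 8603 to 8976 TPM in control and 8344 to 8542 TPM in IL17D libraries, and the part of this difference in the results for single epithelial genes was not tested.

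Among 22 tested genes of the mesenchymal programme, 1 rose and none fell, beside 0.673% higher and 0.908% lower among all tested genes. The median log2 fold change was 0.029. In edgeR, 4 of the 22 had an unadjusted p under 0.05, beside 11.6% of all tested genes. CYR61, a secreted matrix-associated protein, had 79.4, 77.8 and 80 CPM in control and 92.9, 89.6 and 92.1 CPM in IL17D libraries (log2 fold change 0.21, edgeR adjusted p = 0.0115). The groups were apart, as in 15.8% of all tested genes, which is not separate evidence, since CYR61 was named for its call. The call was lost without control library 2 (0.0733), IL17D library 1 (0.0829) or IL17D library 3 (0.0691). CDH2, which encodes N-cadherin, had 3.97 ± 0.629 and 3.62 ± 0.571 CPM (SD, n = 3, log2 fold change -0.13, 95% interval -0.56 to 0.29, edgeR adjusted p = 0.879). CDH1 and FN1 were thus both lower in IL17D cells, one an epithelial and one a mesenchymal gene, while VIM and CDH2 did not pass the test.

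**Figure D3:**
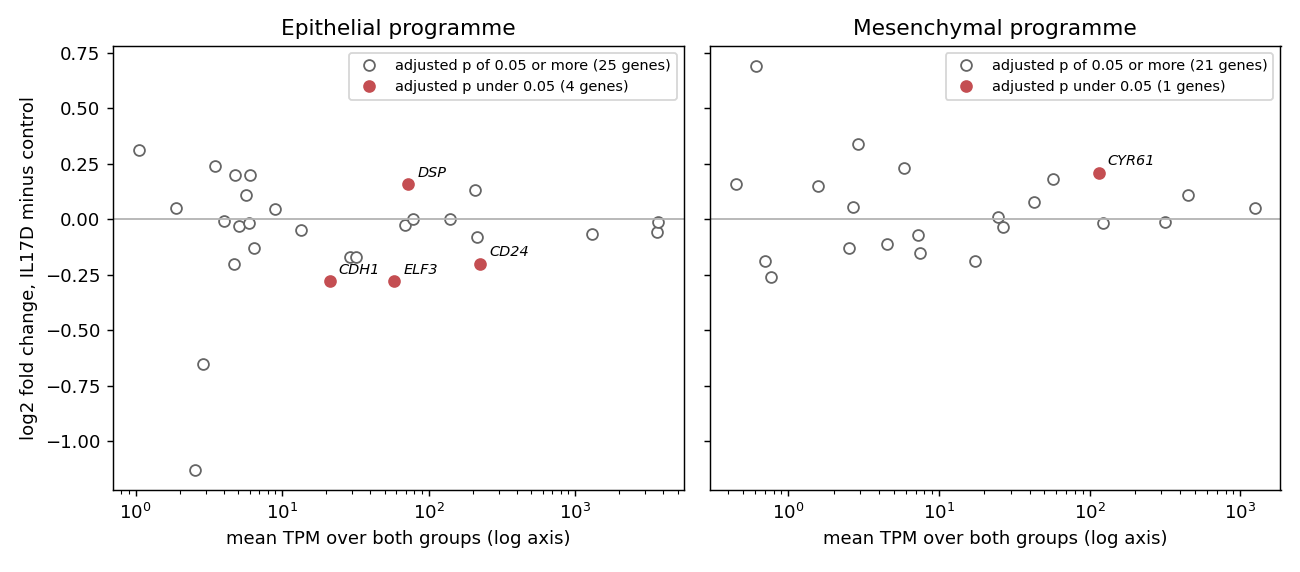
Log2 fold change of each tested gene of the epithelial (left, 29 genes) and mesenchymal (right, 22 genes) programmes against its mean TPM on a log axis, red where the adjusted p was under 0.05. CDH1, ELF3 and CD24 lie between -0.28 and -0.2 and DSP at 0.16 on the left, and CYR61 at 0.21 is the single red point on the right.

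Fibronectin is assembled and bound at the cell surface, and 13 genes of its receptors and assembly were tested. There was 1 rise and 1 fall, beside 0.673% higher and 0.908% lower among all tested genes. The median log2 fold change was -0.064. In edgeR, 5 of the 13 had an unadjusted p under 0.05, beside 11.6% of all tested genes. ITGB1, the beta subunit of the main fibronectin receptors, had 2168, 2167 and 2233 CPM in control and 2010, 2058 and 2039 CPM in IL17D libraries (log2 fold change -0.11, edgeR adjusted p = 0.0181). TGM2, a transglutaminase that cross-links matrix proteins and binds fibronectin, had 471, 483 and 466 CPM in control and 542, 543 and 545 CPM in IL17D libraries (log2 fold change 0.2, edgeR adjusted p = 8.8e-05). The groups of both genes were apart, in opposite directions, beside 15.8% of all tested genes with groups apart. Since ITGB1 and TGM2 were named for their calls, this is not separate evidence. The ITGB1 call was lost without control library 3 (adjusted p = 0.0562), IL17D library 1 (0.163) or IL17D library 3 (0.13), and the TGM2 call held in all 13 alternatives.

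**Figure D4:**
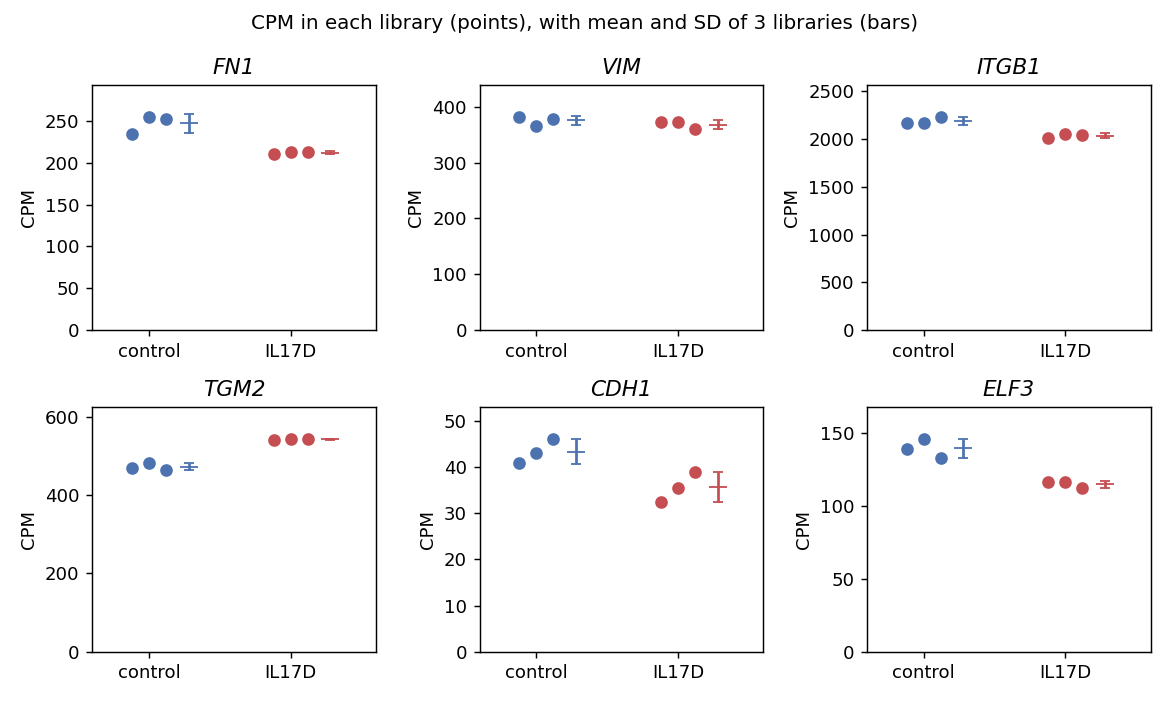
CPM in each control (blue) and IL17D (red) library for FN1, VIM, ITGB1, TGM2, CDH1 and ELF3, with the mean and SD of 3 libraries beside the points and each axis starting at 0. FN1, ITGB1, CDH1 and ELF3 are lower and TGM2 higher in all 3 IL17D libraries, while the VIM points of the groups overlap.

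No gene passed the test in the remaining lists. Among 7 intermediate filament partners of vimentin, the cytolinker PLEC had a log2 fold change of 0.085 (edgeR adjusted p = 0.132) and the nuclear lamin LMNB1 one of -0.055. Of 11 splicing regulators other than ESRP1, 3 had an unadjusted p under 0.05, beside 11.6% of all tested genes, and RBM47 (-0.12, edgeR adjusted p = 0.197) and CELF1 (0.098, edgeR adjusted p = 0.277) had the smallest p-values. The genes with ESRP-regulated exons, 11 in all, included 4 at an unadjusted p under 0.05 (11.6% of all tested genes), among them SLK, a kinase (log2 fold change 0.13, edgeR adjusted p = 0.112), and CTNND1, which encodes p120 catenin (-0.074, 0.394). Counts per gene do not show which exons were used. Of 10 genes of EPCAM cleavage and its partners, 2 had an unadjusted p under 0.05, again beside 11.6% of all tested genes, the claudin CLDN1 (log2 fold change 0.13, edgeR adjusted p = 0.141) and the protease BACE1 (-0.27, 0.391).

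For the 3 members with the smallest p-values, the genes with the most similar pattern over the 6 libraries were sought among 9740 or 9741 genes with at least 10 CPM on average, as a description. The pattern of FN1 was most like that of ELOVL6, a fatty acid elongase (Pearson r = 0.993, 44.1 and 36.1 CPM in control and IL17D cells), and HIPK2, a nuclear kinase (r = 0.992, 206 and 170 CPM). Both were lower in IL17D cells, which follows from their selection by likeness to FN1. TWIST1 was most like MRPS18C, a mitochondrial ribosomal protein gene (r = 0.976), and PRKCD, which encodes protein kinase C delta (r = 0.971). SNAI1 was most like ITGB3BP, a centromere protein gene (r = 0.989), and ANP32B, a histone chaperone gene (r = 0.988). All points of these correlations come from the same 6 libraries, and the genes named were the highest of the search.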

How the data were processed

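RNA-seq of A549 cells with an empty vector (3 libraries) or IL17D (3 libraries) was analysed. The authors deposited raw counts per gene and gene lengths, with no normalization. Their notes name hg38 and Bowtie2, and the counting tool and strand setting are not given in the sources used here. All 58735 genes matched GENCODE 29 coordinates. Groups came from the labels. Genes were kept by filterByExpr, leaving 15754, scaled by TMM, and compared by the two-sided quasi-likelihood test of edgeR 4.0.16 in R 4.3.3, without covariates. Adjusted p-values (Benjamini-Hochberg) under 0.05 were calls. Alternatives used DESeq2 1.42.0, limma 3.58.1, other scalings and filters, a replicate block, and each library left out. CPM used TMM scaling. TPM used the deposited lengths. Steps were tested on simulated data, with changes larger than those of FN1 and the called list genes, so recovery of changes that small was not tested. Members and lists were chosen with earlier results of these data known. Named genes were the members, IL17D, each list's calls (at most 4, smallest p first) or else the 2 smallest p-values, neighbours of members, and, for 3 members, the 2 most correlated genes. Cell type markers came from lists of their own. CDH2, ESRP2, CRB3, CLDN4, GRHL1 and MARVELD2 were named outside this rule, after their values were seen. Depth limited the low members, since 3 counts equal 0.182 to 0.21 CPM, a limit that covers counting error only.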

Additional observations from a re-analysis of the deposited data

How the results depend on the processing

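The call of FN1 held in all 13 alternatives, and the number of members called was 1 in each, the replicate block among them. With single libraries left out, the log2 fold change of SNAI2 ranged from -0.13 (without control library 2) to 0.55 that of SNAI1 from 0.0854 to 0.41, that of TWIST1 from 0.42 to 0.92, and that of EPCAM from -0.38 to 0.0586 (0.00276 and 0.0586 without control library 1 and 3), so the directions of SNAI2 and EPCAM reversed, with no call involved. Leaving out single libraries moved the difference in log2 EPCAM/VIM over -0.34 to 0.17 and that in log2 EPCAM/FN1 over -0.19 to 0.37. The first turned positive without control library 1 (0.12), control library 3 (0.17) or IL17D library 1 (0.09), and the second turned to -0.19 without control library 2. Calls in the related lists numbered 6 to 9 with 1 library left out (3 to 6 higher, 2 to 4 lower), against 10 with all, and were 6 without each IL17D library. Calls over all genes, 249 with all libraries, ranged from 145 to 267 (69 to 129 higher, 76 to 138 lower), with 145 without IL17D library 3 and 155 without IL17D library 1, and lower calls were 95 without control library 2. The causes were not tested. DESeq2 called 196 genes, voom 230, and edgeR on all genes with a count 295. The replicate block gave 272 calls over all genes and 10 in the lists. The labels do not say whether the replicate numbers pair the samples. In deviations from the group mean, same-numbered libraries correlated at 0.075, -0.105 and -0.0573 over 10264 genes. Other pairs correlated at -0.146 to 0.194. No deviation particular to same-numbered libraries was seen, but these correlations cannot decide how the libraries were prepared. In the fit on all genes ZEB2 had a log2 fold change of 0.143 (SE 0.578). Depth limits SNAI2, EPCAM, TWIST1, ZEB2 and ESRP1.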
